A study of Mus musculus with 12 samples.

Results

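Cxcl9, Cxcl10, Cxcl16 and Ccl5 encode chemokines that draw T cells, and these 4 genes were taken by symbol from FPKM tables of 12 libraries that list 24346 gene symbols. FPKM counts the fragments of a transcript relative to its length and to all mapped fragments of the library. Each of the 4 symbols stood on a single row in every library, and all 4 were among the 11808 genes kept for testing, with at least 1 FPKM in every library. The libraries are bulk RNA-seq of macrophages sorted from tumours of Arg1-RFP mice, in which a red fluorescent protein (RFP) reports the arginase gene Arg1. All groups share that reporter, and the cells of every group were sorted as positive for CD45, MHC class II, F4/80 and CD11b, and as negative for B220, CD90.2, NK1.1, Ly6G and Ly6C. The 4 groups of 3 libraries are RFP+ cells from B16F10 melanoma, RFP- cells from B16F10, RFP+ cells from MC38, a colon carcinoma line, and RFP- cells from MC38. Library titles carry the numbers 12, 11 and 3 in B16F10 and 1, 2 and 3 in MC38, each number occurring in both gates. The design text gives n = 3, and the labels state neither the age of the mice nor whether animals were pooled, so the p-values below measure the spread between these libraries.

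Cxcl9 and Cxcl10 are induced by interferons and bind the receptor CXCR3 on activated T cells and natural killer cells. Cxcl9 depends mostly on interferon gamma, whereas Cxcl10 also responds to type I interferon and to NF-kB signals such as those below Toll-like receptors and the TNF receptor. Cxcl16 is made as a membrane protein that takes up oxidised lipoprotein and is cut from the cell surface by the protease ADAM10; its receptor is CXCR6. Ccl5, an NF-kB and interferon target, binds several receptors, CCR1 and CCR3 among them, and is made by T cells and natural killer cells as well as by macrophages. In tumours, macrophages that make Cxcl9 and Cxcl10 are known as a source of the signals that bring effector T cells in.

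In the GENCODE annotation of GRCm38 the 4 genes lie on the minus strand. Cxcl9 (chr5:92321347-92328079) and Cxcl10 (chr5:92346638-92348889) are neighbours on chromosome 5, with 18558 bases between them. Cxcl16 (chr11:70453983-70459984) and Ccl5 (chr11:83525778-83530518) lie on chromosome 11. Cxcl10 lies whole inside Art3, a gene on the opposite strand, and shares 133 exon bases with it. The first 552 bases of Cxcl16 overlap exons of Zmynd15, also on the opposite strand. Whether counting used strand is not given in the sources used here, so reads from these overlaps cannot be told apart.

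The bases before the start of Cxcl9 and Cxcl10 are shown because these neighbours differed in how their levels varied between libraries (below). Both sequences are the 250 bases upstream of the RefSeq start on GRCm38.p6, written 5′ to 3′ on the minus strand, chr5:92328080-92328329 for Cxcl9 and chr5:92348890-92349139 for Cxcl10. The promoter table matched 2 of the 4 genes, so none is shown for Cxcl16 or Ccl5. Capitals mark matches to an interferon-stimulated response element (GAAA, a pair of any bases, GAAA), a gamma-activated site (TTCNNNGAA) or the NF-kB consensus, each searched on both strands.
Cxcl9: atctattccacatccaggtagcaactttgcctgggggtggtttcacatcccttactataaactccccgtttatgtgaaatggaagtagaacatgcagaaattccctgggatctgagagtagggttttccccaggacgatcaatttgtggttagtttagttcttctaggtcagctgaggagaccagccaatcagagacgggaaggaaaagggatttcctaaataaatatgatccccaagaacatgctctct
Cxcl10: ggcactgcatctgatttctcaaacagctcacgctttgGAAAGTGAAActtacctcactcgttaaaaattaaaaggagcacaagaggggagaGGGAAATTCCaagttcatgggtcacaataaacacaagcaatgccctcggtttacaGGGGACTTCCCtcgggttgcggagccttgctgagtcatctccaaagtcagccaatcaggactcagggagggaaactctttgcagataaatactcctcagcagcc
The Cxcl10 window held 1 match to the interferon-stimulated response element, 213 bases before the start, and 3 to the NF-kB consensus, of which 2 overlapped each other. The Cxcl9 window held no match to any of the 3 motifs, and neither window held the gamma-activated site. Among 32851 windows of the same length before gene starts, 2.98% held the interferon-stimulated response element, 7.02% the gamma-activated site and 7.25% the NF-kB consensus. These matches are letters in a window and were not tested as binding sites.

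Before the 4 genes, the labels and libraries were checked. Arg1 was higher in the RFP+ library of each of the 6 numbers, by 7.30 to 11.4 times. All 12 macrophage core genes (among them Csf1r, Cd68 and Mertk) reached at least 1 FPKM in every library. Melanocytic genes, expressed by pigment cells and melanoma cells, summed to 7797 to 10250 FPKM in B16F10 RFP+ libraries and 7771 to 10270 FPKM in B16F10 RFP- libraries, against 14.0 to 18.8 FPKM in MC38 RFP+ and 10.7 to 14.3 FPKM in MC38 RFP- libraries. The deposited values sum to between 614875 and 815591 FPKM per library, and read totals are not known. Judged from the smallest steps in the values, a single fragment added 3.02 to 3.62 times more FPKM in B16F10 than in the MC38 library of greatest depth, so low values are less precise in B16F10. B16F10 RFP- number 12 stood apart, correlating at 0.938 to 0.961 with the other B16F10 libraries, and its part in each result is given where it changes one.

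All 4 chemokine genes were lower in B16F10 than in MC38 macrophages, in both gates and without overlap between libraries. Cxcl9 was the lowest of the 4 in every library.

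**Figure D1:**
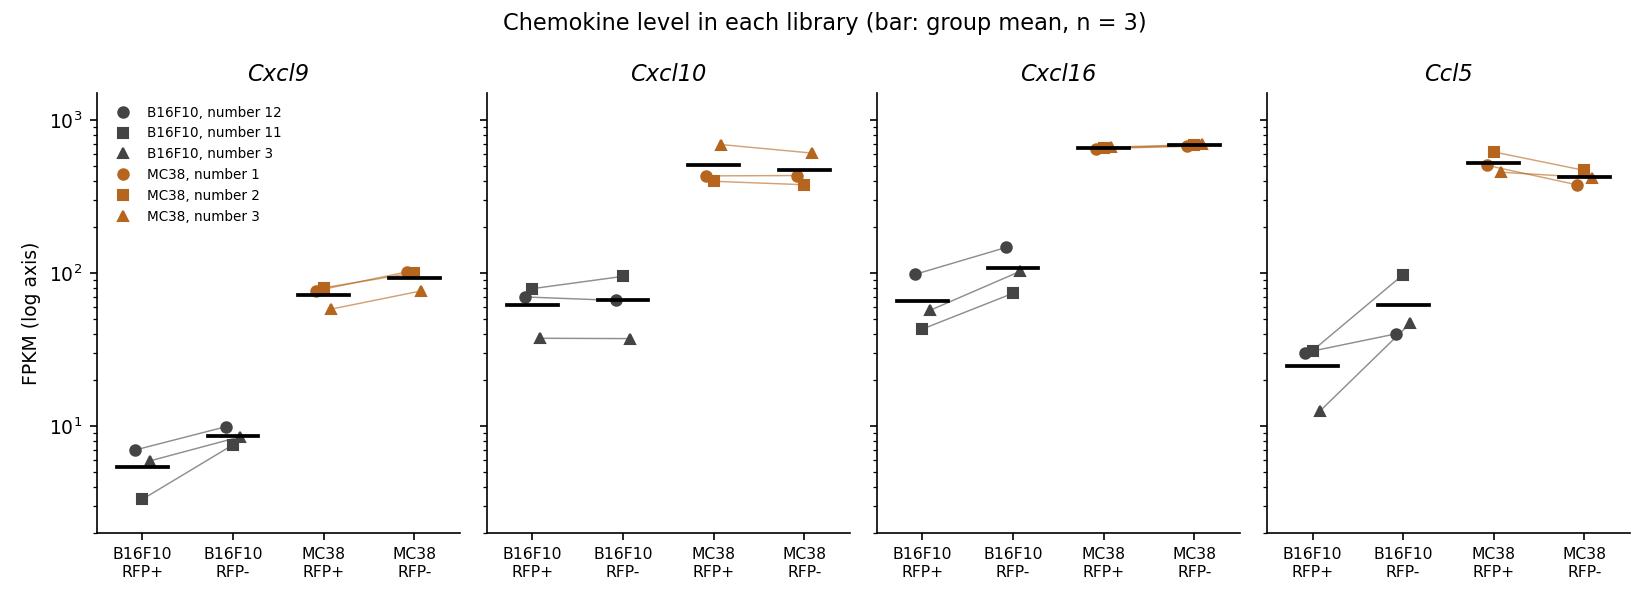
FPKM of each chemokine gene on a log axis in the 4 groups; points are libraries, lines join the 2 gates of a title number and bars are group means (n = 3). Every B16F10 point lies below every MC38 point of the same gene, and the 3 numbers spread widely for Cxcl10 in both tumours but for Cxcl16 only in B16F10.

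Among RFP+ cells, Cxcl9 had 6.96, 3.31 and 5.90 FPKM in B16F10 numbers 12, 11 and 3, against 76.8, 80.3 and 58.2 FPKM in MC38 numbers 1, 2 and 3. Among RFP- cells it had 9.89, 7.53 and 8.50 FPKM in B16F10, against 102.0, 100.5 and 76.6 FPKM in MC38. The highest B16F10 library was thus far below the lowest MC38 library, and number 3 was the lowest of the MC38 numbers in both gates. The group means of Cxcl9 were 5.39 ± 1.88 FPKM in B16F10 RFP+, 8.64 ± 1.19 in B16F10 RFP-, 71.8 ± 11.9 in MC38 RFP+ and 93.0 ± 14.2 in MC38 RFP- cells (SD, n = 3 each).

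Cxcl10 had 69.9, 79.2 and 37.5 FPKM in B16F10 RFP+ cells of numbers 12, 11 and 3, against 433.3, 399.6 and 694.9 FPKM in MC38 RFP+ cells of numbers 1, 2 and 3. In RFP- cells it had 66.3, 95.3 and 37.3 FPKM in B16F10, against 435.7, 379.3 and 611.5 FPKM in MC38. In each tumour a single number stood off in both gates: number 3 was the lowest of B16F10 and number 3 the highest of MC38, 2 separate numbers that share only a digit. Art3, which encloses Cxcl10, ran the other way between tumours, at 12.3 to 25.0 FPKM in B16F10 RFP+ and 9.27 to 22.6 in B16F10 RFP- libraries, against 0.0790 to 0.304 in MC38 RFP+ and 0 to 0.645 in MC38 RFP- libraries.

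Cxcl16 had 98.3, 43.1 and 57.0 FPKM in B16F10 RFP+ cells of numbers 12, 11 and 3, against 653.6, 660.8 and 667.8 FPKM in MC38 RFP+ cells of numbers 1, 2 and 3. In RFP- cells it had 147.3, 73.9 and 103.0 FPKM in B16F10, against 676.1, 686.2 and 696.4 FPKM in MC38. The MC38 libraries were nearly level, with a coefficient of variation of 1.08% in RFP+ and 1.48% in RFP- cells. In B16F10 number 12 was the highest and number 11 the lowest in both gates. The summed macrophage core genes had the same order of B16F10 numbers 12, 3 and 11. Their sums were 13090, 10780 and 6769 FPKM in RFP+ and 9525, 9312 and 5301 FPKM in RFP- cells. Their part in the spread of Cxcl16 was not tested. Zmynd15, which overlaps the start of Cxcl16, had the same order of groups, with means of 6.01 ± 2.33 FPKM in B16F10 RFP+, 12.8 ± 6.83 in B16F10 RFP-, 115.5 ± 2.87 in MC38 RFP+ and 121.4 ± 6.30 in MC38 RFP- cells (SD, n = 3 each).

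Ccl5 had 30.2, 31.1 and 12.5 FPKM in B16F10 RFP+ cells of numbers 12, 11 and 3, against 508.7, 621.9 and 458.3 FPKM in MC38 RFP+ cells of numbers 1, 2 and 3. In RFP- cells it had 40.1, 97.9 and 47.2 FPKM in B16F10, against 378.6, 470.5 and 421.5 FPKM in MC38. RFP- number 11 was high among B16F10 libraries and RFP+ number 3 low, and no such outlying library was seen in MC38.

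The summed level of the 4 genes was 112.9 to 205.4 FPKM in B16F10 RFP+, 196.0 to 274.6 in B16F10 RFP-, 1672 to 1879 in MC38 RFP+ and 1592 to 1806 in MC38 RFP- libraries. Cxcl16 held the largest mean share of that sum in every group, at 42.0% in B16F10 RFP+, 45.1% in B16F10 RFP-, 37.4% in MC38 RFP+ and 41.0% in MC38 RFP-. Ccl5 held 15.2% in B16F10 RFP+ and 25.0% in B16F10 RFP- cells, against 30.0% in MC38 RFP+ and 25.3% in MC38 RFP- cells. Cxcl9 held between 2.11% and 6.41% in single libraries, the smallest share of the 4 in every library.

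The comparison of tumours asks how far the macrophages' chemokine transcripts depend on the tumour line they were sorted from. It was tested in limma on log2(FPKM + 1) with 1 mean per group over the 12 libraries and Benjamini-Hochberg adjustment over the 11808 genes, calling a gene at an adjusted p under 0.05. In RFP+ cells B16F10 minus MC38 was -3.54 ± 0.22 log2 for Cxcl9 (SE, limma adjusted p = 4.59e-08) and -3.04 ± 0.35 for Cxcl10 (limma adjusted p = 9.25e-06). It was -3.38 ± 0.27 for Cxcl16 (limma adjusted p = 3.34e-07) and -4.46 ± 0.34 for Ccl5 (limma adjusted p = 2.55e-07). The B16F10 mean FPKM was thus 0.0751 of the MC38 mean for Cxcl9, 0.122 for Cxcl10, 0.10 for Cxcl16 and 0.0465 for Ccl5. In RFP- cells the difference was -3.28 ± 0.22 for Cxcl9, -2.89 ± 0.35 for Cxcl10, -2.71 ± 0.27 for Cxcl16 and -2.87 ± 0.34 for Ccl5, with limma adjusted p of 8.62e-08, 1.2e-05, 2.12e-06 and 1.11e-05 in the same order.

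So 4 of 4 genes were called lower in B16F10 in each gate, against 20% of all genes tested in RFP+ and 21.9% in RFP- cells. Their libraries did not overlap either, which held for 24.8% of genes lower in B16F10 in RFP+ and 22.8% in RFP- cells. A difference at or below that of the gene with the smallest drop was seen in 1.13% of genes in RFP+ and 1.78% in RFP- cells. The median of all genes tested was 0.23 log2 in both gates, so these drops are not a shift of the whole table. In such bulk data, fewer cells of a type and less RNA per cell cannot be told apart, and the tumour line and everything else that differs between the 2 sets of libraries cannot be told apart either. Markers of other cells differed between the tumours as well. Neutrophil markers summed to 18.6 to 291.6 FPKM in B16F10 RFP+ and 13.8 to 713.1 in B16F10 RFP- libraries, against 3.79 to 8.44 in MC38 RFP+ and 2.13 to 6.5 in MC38 RFP- libraries. Of the 7 found in the files, the 3 kept (S100a8, S100a9 and Cxcr2) made up nearly all of the B16F10 means, with 2 called higher in B16F10 in RFP+ and 3 in RFP- cells, while Elane, which encodes neutrophil elastase, was listed at 0 in all libraries of every group but B16F10 RFP-. Fibroblast markers summed to 1.78 to 2.01 FPKM in B16F10 RFP+ and 2.04 to 2.93 in B16F10 RFP- libraries, against 55.9 to 64.7 in MC38 RFP+ and 48.3 to 60.2 in MC38 RFP- libraries, and 3 of the 4 kept were called lower and 1 higher in B16F10 in each gate. Their part in the chemokine differences was not tested.

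Macrophage core genes fell too: 11 of 12 were called lower in B16F10 in each gate, with a median of -2.02 log2 in RFP+ and -2.27 in RFP- cells. The 4 chemokine genes were therefore set against them, each library being scaled so that its median log2 level of the 12 core genes was the same; this moved the median of all genes to 2.41 in RFP+ and 2.18 in RFP- cells. The core genes themselves were not made level one by one: after it their median difference was 0.53 in RFP+ cells, with 7 of 12 called higher in B16F10, and 0.090 in RFP- cells, with 4 called higher. All 8 differences stayed negative under that scaling. In RFP+ cells Cxcl9 was -1.16 (limma adjusted p = 0.00137), Cxcl16 was -0.83 (limma adjusted p = 0.00228) and Ccl5 was -1.94 (limma adjusted p = 0.00168), while Cxcl10, at -0.48 with an interval of -1.47 to 0.50, did not pass (limma adjusted p = 0.325). In RFP- cells Cxcl9, at -1.0, was the only one to pass (limma adjusted p = 0.00452). Cxcl10 was -0.52 there (limma adjusted p = 0.294), Cxcl16 was -0.34 (limma adjusted p = 0.167) and Ccl5 was -0.49 (limma adjusted p = 0.355).

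**Figure D2:**
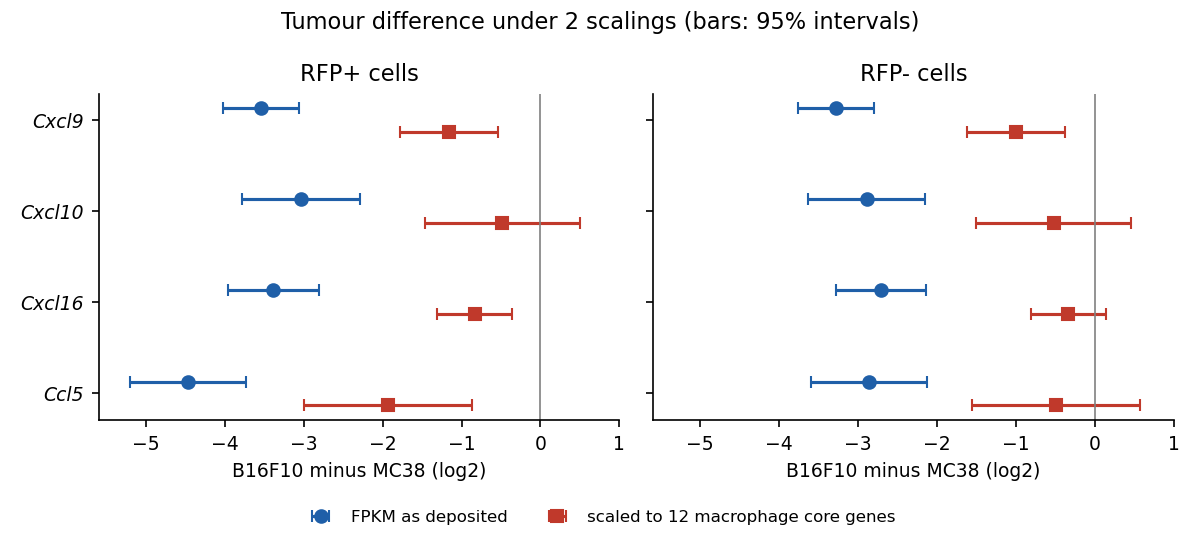
B16F10 minus MC38 in log2 for each chemokine gene, with 95% intervals, from the FPKM as deposited (circles) and after scaling to 12 macrophage core genes (squares). The scaled values lie between -1.94 and -0.34. After scaling the interval of Cxcl10 crosses 0 in both gates, and those of Cxcl16 and Ccl5 cross 0 in RFP- cells.

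Upstream genes were described next, from lists of the pathways that induce these chemokines. Of the interferon gamma pathway, 9 of the 9 genes kept were called lower in B16F10 in each gate, with a median of -1.88 log2 in RFP+ and -1.85 in RFP- cells. Among its largest drops were Irf1 (-3.23 in RFP+, -2.88 in RFP-), a transcription factor of the pathway, its inhibitor Socs1 (-2.69 and -2.44 in the same order) and the receptor gene Ifngr1 (-2.0 and -2.04). Ifng itself was under the filter in all groups, with a highest group mean of 0.233 FPKM. Against macrophage core genes Irf1 and Socs1 stayed lower, at -0.71 and -0.53 in RFP+ and -0.52 and -0.40 in RFP- cells, but neither passed (limma adjusted p between 0.0834 and 0.228), and 6 of the 9 pathway genes turned positive in each gate.

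Interferon gamma targets were called lower in 19 of 19 cases in each gate, with a median of -2.33 log2 in RFP+ and -2.29 in RFP- cells. Gbp2 (-3.44 in RFP+, -3.39 in RFP-), Gbp4 (-3.28, -3.88) and Iigp1 (-3.43, -3.76), all interferon-induced GTPases that act against pathogens inside cells, dropped about as far as Cxcl9. Gbp3 (-3.23) in RFP+ and Gbp6 (-3.21) in RFP- cells completed the 4 largest. With macrophage core scaling 5 targets stayed called lower in RFP+ and 6 in RFP- cells, but 8 of the 19 turned positive in each gate.

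Of the type I interferon pathway, 8 of 10 genes in RFP+ and 7 of 10 in RFP- cells were called lower, led by Irf7 (-3.86 in RFP+, -4.18 in RFP-), the factor that amplifies interferon production. Stat2 (-2.12, -2.37), Irf9 (-1.60, -1.60) and Tmem173, which encodes STING (-1.78, -1.60), followed. All 20 type I interferon targets were called lower in each gate, with a median of -2.36 in RFP+ and -2.90 in RFP- cells. In RFP+ cells Ifi44 (-4.11), Isg15 (-3.10), Ifit3 (-3.06) and Oasl2 (-3.01) dropped most, and in RFP- cells Ifi44 (-3.73), Oas3 (-3.43), Usp18 (-3.39) and Oasl2 (-3.35). Irf7 and Ifi44 stayed called lower after macrophage core scaling, at -1.32 and -2.45 in RFP+ and -1.83 and -1.97 in RFP- cells. In RFP- cells so did Oas3 (-1.445), Mx1 (-1.36) and Oasl2 (-1.06), making 4 of the 20 targets, with 0 called higher. In RFP+ cells Ifi44 was the only target called lower, and 2 were called higher. But 9 of the 10 pathway genes in RFP+ and 8 in RFP- cells turned positive or stayed so, as did 10 and 3 of the 20 targets.

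NF-kB genes and targets were called lower in 14 of 15 cases in each gate, with a median of -2.43 in RFP+ and -2.36 in RFP- cells. Il1b, which encodes the cytokine interleukin-1 beta, dropped most (-3.93 in RFP+, -4.26 in RFP-). Next came Nfkbie (-3.32), Traf1 (-3.07) and Nfkbiz (-3.01) in RFP+ cells, and Nfkbiz (-3.26), Tnfaip3 (-3.21) and Birc3 (-2.95) in RFP- cells. After macrophage core scaling 8 of the 15 in RFP+ and 6 in RFP- cells were positive.

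**Figure D3:**
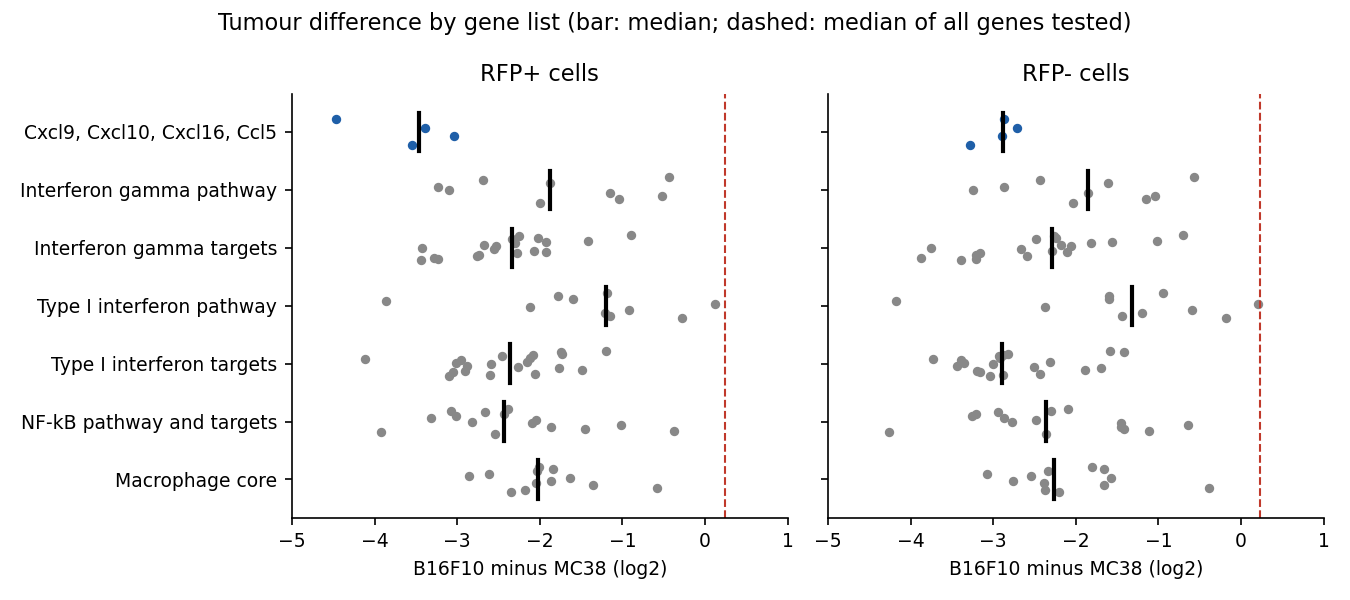
B16F10 minus MC38 in log2 for the 4 chemokine genes and for each gene of 6 lists; bars are medians and the dashed line is the median of all genes tested. The dashed line lies at 0.23 in both panels, right of the median of every list, macrophage core genes included.

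The receptors and proteases of these chemokines were also read in the same libraries. Ccr1, a receptor for Ccl5 that macrophages carry themselves, averaged 59.7 FPKM in B16F10 RFP+ and 47.6 in B16F10 RFP- cells, against 134.9 in MC38 RFP+ and 105.5 in MC38 RFP- cells. It was called lower in B16F10 (-1.14 log2 in RFP+, -1.11 in RFP-), but higher after macrophage core scaling (1.40 and 1.24). Cxcr3, the receptor of Cxcl9 and Cxcl10, had means of only 2.41 to 5.99 FPKM over the groups and was called higher in B16F10 RFP+ cells (0.74 log2, limma adjusted p = 0.0106). Cxcr6, the receptor of Cxcl16, stayed under 0.36 FPKM in every group mean. The proteases Adam10 (-1.07 in RFP+, -1.70 in RFP-) and Adam17 (-1.20, -1.60) were called lower in B16F10, and positive in both gates after core scaling.

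Other lymphocyte chemokines gave a mixed picture. Cxcl11, the third interferon-induced CXCR3 ligand, was called lower in B16F10 (-1.82 in RFP+, -1.72 in RFP-) from group means of at most 5.47 FPKM. Ccl22 (-1.89) and Ccl17 (-1.83) were called lower in RFP+ cells, and Cxcl13 (-2.12) and Ccl4 (-1.20) in RFP- cells. After macrophage core scaling only Cxcl13 in RFP- cells stayed called lower among these (-1.20, limma adjusted p = 0.00119). Cxcl11 was then -0.42 in RFP+ and -0.12 in RFP- cells, and Ccl22 and Ccl17 were -0.026 and -0.19 in RFP+ cells, none of them called, while Ccl4 was called higher in RFP- cells (1.18, limma adjusted p = 0.0256). Pf4, a platelet chemokine grouped here with the CXCR3 ligands, ran against the others of that list. It was called higher in B16F10 by 2.32 log2 in RFP+ and 1.89 in RFP- cells.

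The gate comparison asks whether macrophages that report Arg1 carry these chemokine transcripts at another level than those that do not. In B16F10, RFP+ cells had lower Cxcl9, Cxcl16 and Ccl5 than RFP- cells in all 3 numbers, and in MC38 Cxcl9 and Cxcl16 were again lower while Ccl5 was higher in all 3, the small Cxcl16 difference of MC38 turning positive under macrophage core scaling. Cxcl10 kept no direction over the 3 numbers of either tumour. Without regard to number, 0 of the 4 genes passed limma in B16F10, where 0.0508% of all genes were called lower. Cxcl9, Cxcl16 and Ccl5 had unadjusted limma p of 0.0141, 0.0168 and 0.00221 there. A lower value in all 3 B16F10 numbers was seen in 19.1% of all genes. In MC38 15.5% of all genes were lower and 17.3% higher in all 3. Libraries of the 2 gates did not overlap for Cxcl9 and Ccl5 in B16F10, nor for 6.22% of all genes lower in RFP+ cells.

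**Figure D4:**
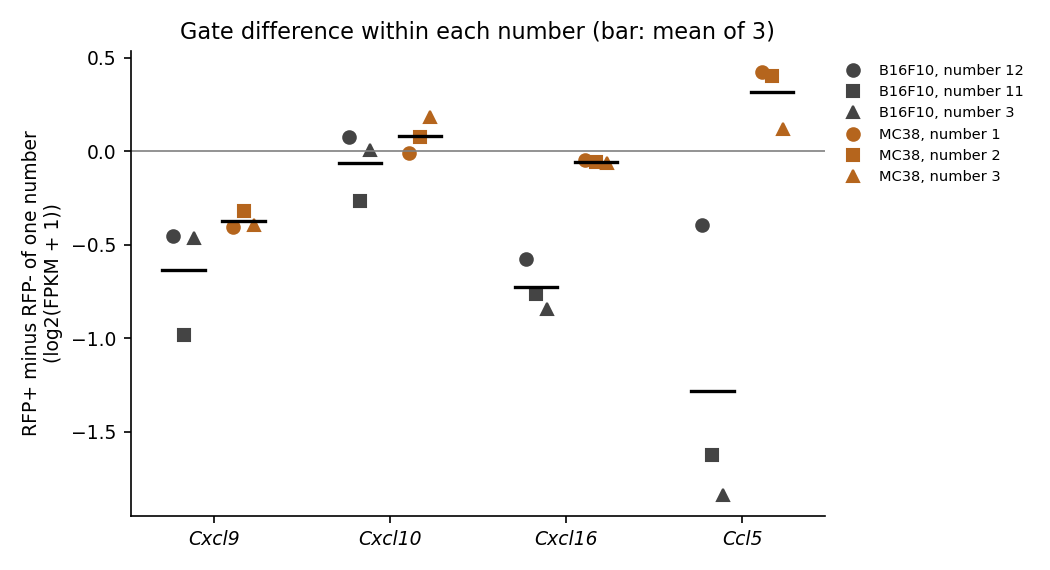
RFP+ minus RFP- in log2(FPKM + 1) within each title number, by chemokine gene and tumour; bars are means of 3 numbers. Cxcl9 and Cxcl16 lie below 0 in all 6 numbers (the mean of Cxcl16 in MC38 is 0.080 after scaling to macrophage core genes), and Ccl5 lies below 0 in B16F10 and above 0 in MC38.

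The title numbers bear on that test. Deviations from the group means correlated across genes at 0.228 to 0.443 between the 2 gates of each of the 6 numbers, and at -0.306 to 0.0178 between different numbers of a tumour. A model with tumour and number as a block therefore stands beside the first. With that block 2 of 4 genes were called lower in RFP+ cells of B16F10, where 0.525% of all genes were. In MC38 0 of 4 were called with or without the block, where 0.0254% of all genes were called in either direction without it, and 0.0847% were called lower and 0.356% higher with it. Over the mean of both tumours 0 were called without the block, against 0.11% of all genes called lower, and 2 with it, against 0.601%.

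For Cxcl9 the ratio of RFP+ to RFP- was 0.704, 0.440 and 0.694 in B16F10 numbers 12, 11 and 3, and 0.753, 0.799 and 0.759 in MC38 numbers 1, 2 and 3. Being lower in all 6 numbers held for 4.01% of all genes. The difference was -0.63 ± 0.22 log2 in B16F10 (SE, limma adjusted p = 0.459, with the block 0.0681) and -0.37 ± 0.22 in MC38 (limma adjusted p = 1, with the block 0.652). Without B16F10 number 12 and with the block, the B16F10 difference was -0.72 and was called (limma adjusted p = 0.0423). Over both tumours it was -0.50, with limma adjusted p = 0.377 without and 0.0336 with the block. That call was lost without any single B16F10 number other than 12 and without any single MC38 number, with limma adjusted p between 0.0567 and 0.216.

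Cxcl16 had RFP+ to RFP- ratios of 0.668, 0.584 and 0.554 in B16F10 numbers 12, 11 and 3, so all 3 lay well below 1. In MC38 the ratios were 0.967, 0.963 and 0.959, below 1 by a few percent each time. The B16F10 difference was -0.73 log2, with an SE of 0.27 and a limma adjusted p = 0.473 without the block, and an SE of 0.10 and a limma adjusted p = 0.00713 in the blocked model. Scaled to macrophage core genes it was -0.42 and was called in the blocked model (limma adjusted p = 0.0478). Without B16F10 number 3 it was -0.67 and did not pass (limma adjusted p = 0.0819), whereas without number 11 it did (limma adjusted p = 0.0308). The MC38 difference was -0.054 ± 0.27 (SE, limma adjusted p = 1 with and without the block), and scaling to macrophage core genes turned it to 0.080. In MC38 the 2 gates did not overlap, as for 4.98% of genes lower in RFP+ cells there.

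The difference between these 2 Cxcl16 gate effects was -0.67 ± 0.38 log2 (SE) and did not pass, with limma adjusted p = 0.895 without and 0.376 with the block. Without B16F10 number 12 and with the block it was -0.75 and was called (limma adjusted p = 0.0416). Over both tumours Cxcl16 was lower by 0.39 log2, with limma adjusted p = 0.698 without and 0.0246 with the block; without any single number other than B16F10 number 12, the p with the block was 0.0545 to 0.169. Scaling to macrophage core genes ended both calls over the 2 tumours in the blocked model, with Cxcl9 at -0.32 (limma adjusted p = 0.146) and Cxcl16 at -0.17 (limma adjusted p = 0.208).

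Ccl5 had RFP+ to RFP- ratios of 0.755, 0.318 and 0.265 in B16F10 numbers 12, 11 and 3, and of 1.34, 1.32 and 1.09 in MC38 numbers 1, 2 and 3. The B16F10 difference was -1.28 ± 0.34 log2 (SE, limma adjusted p = 0.255) and passed with the block (limma adjusted p = 0.0191), in which its SE was 0.22. Leaving out number 11 gave -1.12 (limma adjusted p = 0.0624) and leaving out number 3 gave -1.01 (limma adjusted p = 0.158), neither of which passed; without number 12, whose RFP- library stood apart, it was -1.73 (limma adjusted p = 8.31e-05). The MC38 difference was 0.32 ± 0.34 (SE, limma adjusted p = 1 with and without the block).

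Ccl5 was lower in all 3 B16F10 numbers and higher in all 3 MC38 numbers, as were 2.53% of all genes. The difference between the gate effects was -1.60 ± 0.48 log2 (SE, limma adjusted p = 0.895), and with the block it did not pass either (SE 0.32, limma adjusted p = 0.298). Over all genes 0% were called for such a difference without the block and 0.0339% with it. Without B16F10 number 12 and with the block it was -2.04 ± 0.13 (SE, limma adjusted p = 0.00106). Over both tumours Ccl5 was lower by 0.48 log2, with limma adjusted p = 0.698 without and 0.214 with the block; without number 12 and with the block it was -0.71 and was called (limma adjusted p = 0.00085). An exact two-sided permutation test of the 3 against 3 within-number differences gave p = 0.1 for each of Cxcl9, Cxcl16 and Ccl5, the smallest that this design allows, and p = 0.4 for Cxcl10, so it could pass for none of them.

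Cxcl10 had RFP+ to RFP- ratios of 1.05, 0.831 and 1.01 in B16F10 numbers 12, 11 and 3, and of 0.994, 1.05 and 1.14 in MC38 numbers 1, 2 and 3. Its gate difference was -0.061 log2 in B16F10 and 0.084 in MC38. With the block the 95% interval was -0.31 to 0.19 in B16F10 and -0.16 to 0.33 in MC38, and no call was made in either (limma adjusted p = 0.79 and 1). The sign of the B16F10 value turned with 3 other scalings or weightings.

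Dendritic cell markers were summed in the same libraries. Their sum over 10 genes was 15.8 to 24.0 FPKM in B16F10 RFP+ against 35.2 to 79.0 in B16F10 RFP- libraries, and 35.2 to 67.2 in MC38 RFP+ against 51.5 to 107.1 in MC38 RFP- libraries. It was lower in the RFP+ library of every number. Of the 9 markers kept, which include the chemokine gene Ccl22, 8 had negative differences in each tumour and 1 a positive one. No marker was listed at 0 in all libraries of a group. Without the block 0 markers were called in B16F10 or MC38. With it 2 were called lower in B16F10, where 0.525% of all genes were, and 0 in MC38. In the mean of both tumours 1 was called lower without the block and 2 with it. RFP- number 11, the highest B16F10 library for Ccl5, also had the highest dendritic sum of B16F10 (79.0 FPKM), but the lowest Cxcl9 and Cxcl16 of the B16F10 RFP- libraries. That library also had the lowest macrophage core sum of all libraries (5301 FPKM). Its melanocytic share was the highest, at 1.67% of its summed FPKM. The part of these sums in its chemokine levels was not tested. The part of dendritic cells in the lower Cxcl9, Cxcl16 and Ccl5 was not tested. T cell markers were low, with sums of 2.92 to 4.15 FPKM in B16F10 RFP+ and 3.39 to 9.31 in B16F10 RFP- libraries. In MC38 they summed to 1.86 to 9.28 FPKM in RFP+ and 3.13 to 11.3 in RFP- libraries. None of the 10 present reached 1 FPKM in all 3 libraries of a group. Of the 4 kept, 2 were called higher in B16F10 than in MC38 in RFP- cells and 0 in RFP+ cells, without core scaling. Natural killer markers summed to at most 5.18 FPKM in B16F10 RFP+, 11 in B16F10 RFP-, 8.33 in MC38 RFP+ and 13.7 in MC38 RFP- libraries. The part of T cells and natural killer cells in the Ccl5 levels was not tested.

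Few genes of the inducing pathways were called between the gates, as were few genes of any kind. In B16F10 0 of 9 interferon gamma pathway genes and 0 of 19 targets were called, with or without the block, where 0.178% of all genes were called in either direction without it and 1.36% with it; the pathway gene of the highest mean level was Ifngr1 (0.043 log2), and the targets were Psmb8 (-0.52) and Psmb9 (-0.43), subunits of the immunoproteasome. Nos2, which encodes the nitric oxide synthase that competes with arginase for arginine, was the only target called in the mean of both tumours (0.93 log2, limma adjusted p = 0.0344). Of the 20 type I interferon targets, 17 had positive differences in B16F10, with a median of 0.40 log2 against -0.012 over all genes, and 11 in MC38, with a median of 0.052. Among type I interferon pathway genes and targets Ddx58, the RNA sensor RIG-I, was the only one called, and only with the block in B16F10 (0.96 log2, limma adjusted p = 0.0309). In the NF-kB list the block gave Nfkbia, an inhibitor of NF-kB, as higher (0.64 log2, limma adjusted p = 0.033) and Traf1 as lower (-0.99, limma adjusted p = 0.0266) in B16F10 RFP+ cells. Ccl17 (-2.61, limma adjusted p = 0.0226) and Ccl22 (-1.70, limma adjusted p = 0.0309) were called lower there with the block, and Cxcl13 (-1.46, limma adjusted p = 0.0445) in MC38. Pf4 was higher in RFP+ cells by 1.53 log2 in the mean of both tumours (limma adjusted p = 0.0234, with the block 0.000207). Among receptors and proteases none was called in B16F10 or MC38, with values such as Ccr1 (0.36 log2 in B16F10, 0.39 in MC38), Adam17 (0.25, -0.15) and Adam10 (0.51, -0.12).

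The spread between libraries differed among the 4 genes. On the log2 scale the residual SD of the model with 4 group means was 0.30 for Cxcl9, 0.52 for Cxcl10, 0.39 for Cxcl16 and 0.51 for Ccl5, against a median of 0.27 over all genes tested. Among genes with a mean of at least 5 FPKM, 95.1% had a smaller SD than Cxcl10, 94.4% than Ccl5, 84% than Cxcl16 and 65.9% than Cxcl9. Taking the numbers into account lowered the SD of Cxcl10 to 0.10, of Cxcl16 to 0.068 and of Cxcl9 to 0.15, but left Ccl5 at 0.40, against a median of 0.22 over all genes. For Cxcl10 and Cxcl16 most of the spread within groups was therefore shared by the 2 gates of a number, whatever the mean difference between the gates, while for Ccl5 much of it was not.

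**Figure D5:**
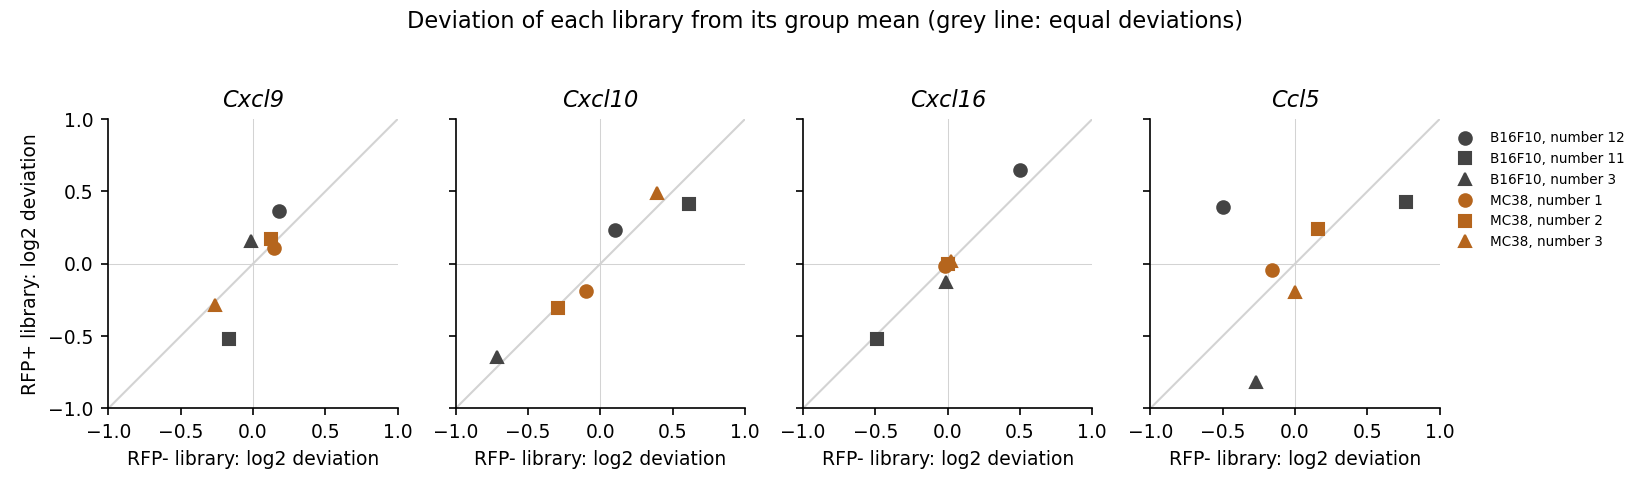
Deviation of each RFP+ library from its group mean against that of the RFP- library of the same title number, both in log2(FPKM + 1), for each chemokine gene; the grey line marks equal deviations. Cxcl10 and Cxcl16 follow the line, and B16F10 number 12 lies off it for Ccl5, at 0.39 in RFP+ and -0.50 in RFP- cells.

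The deviations showed the same contrast. For Cxcl10 they had the same sign in both gates of 6 of 6 numbers, reaching -0.65 in RFP+ and -0.72 in RFP- cells of B16F10 number 3 and 0.49 and 0.39 in MC38 number 3. Cxcl16 also agreed in sign in 6 of 6, with 0.65 and 0.50 in B16F10 number 12 and -0.52 and -0.49 in B16F10 number 11. In MC38 its SD within groups was 0.019, smaller than for all but 1.17% of the genes tested. In B16F10 it was 0.55, with 88.9% of those genes below it. Ccl5 was also the more variable in B16F10, with 96% of those genes below it in B16F10 and 50.4% in MC38.

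The likeness among the 4 genes was uneven. Over the 12 libraries, which come from 6 numbers that share both gates, the deviations of Cxcl9 and Cxcl16 correlated at 0.70 and those of Cxcl10 and Ccl5 at 0.58, while Cxcl9 and Cxcl10 correlated at -0.54. Within B16F10 the first pair correlated at 0.86 and the second at 0.82. Cxcl9 and Cxcl16 shared the B16F10 order of the macrophage core sums, highest in number 12 and lowest in number 11 in both gates. The part of macrophage content in their 0.86 was not tested. Within MC38 Cxcl16 hardly varied, so its correlations there (-0.83 with Cxcl9, 0.71 with Cxcl10, 0.0745 with Ccl5) cannot be read. The 0.70 of Cxcl9 and Cxcl16 over the 12 libraries thus rests mainly on B16F10. Cxcl10 and Ccl5 were at -0.64 in MC38. Cxcl9 and Cxcl10 were at -0.35 in B16F10 and -0.98 in MC38. These values are descriptions of 12 libraries that are not independent.

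The genes whose deviations were most like each chemokine were ranked by Pearson correlation among 7749 others with a mean of at least 5 FPKM. Picking the highest of so many over 12 libraries that are not independent gives high values by itself, and no test was made. Cxcl10 was followed by Tnf (0.971), the immediate early gene Nr4a1 (0.969), the activation marker Cd83 (0.968), Csrnp1 (0.955) and Zc3h12a (0.953), which encodes a ribonuclease that degrades cytokine mRNAs. Cxcl16 was followed by Apobr (0.961), a lipoprotein receptor, Trem2 (0.959), a lipid-sensing receptor of macrophages, Amz1 (0.956), Abcc3 (0.954) and the complement gene C1qa (0.953). Ccl5 was followed by Arl14ep (0.960), Irak2 (0.951), a kinase below Toll-like receptors, Senp6 (0.951), Cebpg (0.925) and Syt9 (0.917). Cxcl9 was followed by Tor1a (0.951), Pcca (0.945), Arl11 (0.917), Hsd3b7 (0.900) and Creg1 (0.896). With group means left in, 3 of the 5 were shared for Cxcl10 and 0 for the other 3 genes; the highest were then Gbp2b for Cxcl9 (0.991) and, for Cxcl16, its overlapping neighbour Zmynd15 (0.997).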

How the data were processed

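Fragments were aligned to mm10 with TopHat2 2.1.1 and Bowtie2 2.2.8 and handled with SAMtools 0.1.18, per the submitters' processing notes, which also name Cuffdiff 2.2.1. RNA was extracted with TRI Reagent and made into libraries with SMART-Seq HT and Nextera XT kits, per the labels' protocols. The authors deposited FPKM per gene symbol, 1 table a library, per the file headers; annotation, filters, strand setting and scaling are not stated in those sources, and FPKM depends on what else a library holds. From these values log2(FPKM + 1) was computed and a gene was kept where 3 or more libraries reached 1 FPKM. limma 3.58.1 (R 4.3.3) with a trended prior, tested on simulated data, was fitted to 4 group means over 12 libraries (8 residual degrees of freedom), or with tumour and title number as a block (4). Same-numbered libraries were taken as pairs because all 6 correlations passed 0.1; the pairing comes from the titles. The 4 genes and all lists were chosen with earlier results of these data known. Named genes were the 4 chemokines, per list the up to 4 called genes of largest difference or, with none called, the 2 of highest mean, the 5 most alike, and Arg1. Art3 and Zmynd15 were added for their overlap. Figures were drawn with matplotlib 3.10.9. Some named results are not reported here.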

Additional observations from a re-analysis of the deposited data

Results flagged for a closer look

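The gate difference of Ccl5 ran in opposite directions in the 2 tumours: RFP+ libraries were lower than RFP- libraries in all 3 B16F10 numbers (12.5 to 31.1 FPKM against 40.1 to 97.9) and higher in all 3 MC38 numbers (458.3 to 621.9 FPKM against 378.6 to 470.5). The difference between the gate effects was -1.60 on the log2 scale and did not pass limma with Benjamini-Hochberg adjustment over all genes, with or without the block of title numbers. The summed level of dendritic cell markers was lower in the RFP+ library of every number, though few single markers were called. Their part in the Ccl5 difference was not tested.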

How the results depend on the processing

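Of 168 values of the 4 genes recomputed for the tumour comparisons, 164 kept direction and call, and 4 lost the call, all under macrophage core scaling (given above); genes called lower then fell to 1 of the 4 in RFP- cells, and genes called over the whole table moved to 10569 higher and 179 lower in RFP+ and 10207 higher and 182 lower in RFP- cells, against 4159 and 2364, and 4467 and 2584, as reported. Of 456 gate values 407 kept direction and call, 21 passed only in a fit with the replicate block and 28 changed sign. With the replicate block 2 of the 4 genes were called lower in B16F10 and 2 in the mean of both tumours; leaving out the number 12 pair made these 3 and 3 and gave 2, Cxcl16 and Ccl5, for the difference between tumours. In B16F10 the count with the block was 1 without number 11, 0 without number 3, and 2 without any one MC38 number or with macrophage core scaling; these block settings, other than the one without number 12, were added after seeing the data. Genes called over the whole table in B16F10 were 15 higher and 6 lower without the block, and 98 and 62 with it. Over every setting run these counts ranged from 4 to 1492 higher and 0 to 110 lower in B16F10, from 1 to 122 and 0 to 28 in MC38, from 10 to 639 and 1 to 115 in the mean of both, and from 0 to 5 and 0 to 4 for the difference. The block was not used for the tumour comparisons, where numbers pair no libraries across tumours. Their spread was pooled over both gates, whose same-numbered libraries correlated at 0.228 to 0.443. The 8 residual degrees of freedom thus count libraries that are not independent, and the tumour p-values may be too small.

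Sign changes, none of a called value, were nearly all of Cxcl10. Its B16F10 gate value was 0.029 with quantile normalization, 0.25 with core scaling (the same with the block), 0.44 with array weights and 0.041 with the block without number 11. Its mean over tumours was -0.022, -0.0056 and -0.014 with the block without B16F10 number 12, B16F10 number 3 and MC38 number 3. Its difference between tumours was 0.037 with core scaling, with or without the block, and 0.41 with array weights. Leaving out 1 library at a time gave -0.42 to 0.26 in B16F10, -0.16 to 0.28 in MC38, -0.17 to 0.17 for the mean and -0.50 to 0.18 for the difference for Cxcl10, and -0.44 to 0.00059 for the Cxcl9 difference between tumours. The Cxcl16 gate value in MC38 was 0.080 with core scaling, with or without the block. Read depth is not known, so no counting interval can be given.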
